A study of Mus musculus with 4 samples.

Results

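The mRNA decay machinery was followed here as 46 protein-coding genes of the 18200 in a table of polysome RNA from mouse ADSCs, the name the labels give to these cells. The genes were taken by name alone: the CCR4-NOT subunits (Cnot), the RNA exosome (Exosc), decapping factors (Dcp1, Dcp2, Edc3, Edc4), the nonsense-mediated decay factors (Upf1 to Upf3 and Smg), the deadenylases Pan2, Pan3 and Parn, the exonucleases Xrn1 and Xrn2, the adaptors of the Btg and Tob families except Btg2, and the ribosome rescue factors Pelo and Hbs1l. The rule uses names only, though it was set with earlier results of these data known. Exosc6 and Btg4 were not analysed here.

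Polysomes are messenger RNAs carrying several ribosomes. RNA from them was sequenced in 4 libraries, 2 labelled IFIT1 knockdown and 2 labelled Scrambled, with no word on how the knockdown was made. All 4 are labelled WT and ADSCs, and replicate 1 of each group is in batch 1 and replicate 2 in batch 2. The series title places the work in mesenchymal stem cell therapy after myocardial infarction and asks about Ifit1, translation and myogenic differentiation. Nothing in the labels says that the replicates were separate cultures, so the p-values speak for these 4 libraries alone, whose spread may be technical. Total RNA was not analysed here, so less of a messenger RNA in the cell and less of it on polysomes cannot be told apart. Fewer cells of a type and less RNA per cell cannot be told apart either.

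Ifit1 itself (Entrez 15957) had 13.9 and 14.8 FPKM in the libraries labelled knockdown and 1.93 and 1.91 FPKM in those labelled scrambled. It was therefore higher where the labels name its knockdown, 7.47-fold, and every direction below is that of the labels and not of a shown loss of Ifit1. Whether the labels of the groups were exchanged was not tested, and an exchange would turn every direction given here. FPKM is a fragment number scaled to gene length and to library size. The summed FPKM of all genes was 701936 and 680137 in the libraries labelled knockdown and 598188 and 616504 in those labelled scrambled. The FPKM of 15872 genes could be turned back into whole fragments, which can be short by a common divisor. Over these genes alone they came to 29011473 and 26466726 fragments for the libraries labelled knockdown and 24448952 and 29825482 for those labelled scrambled. These sums are not library totals. Of the stromal markers, 7 of 10 were above a mean of 1 FPKM, and they moved with the groups in both directions. Thy1 was 8.29-fold, Eng 2.52-fold, Ly6a 1.96-fold, Cd44 1.54-fold and Itgb1 1.37-fold higher in the libraries labelled knockdown, while Col1a1 and Col1a2 were lower, at folds of 0.312 and 0.340 (limma, adjusted p under 0.05 for all 7). The 10 markers summed to 133 FPKM in both libraries labelled knockdown and to 159 and 160 FPKM in those labelled scrambled, with Pdgfra at or below 0.121 FPKM and Nt5e at or below 0.0347 FPKM in every library. The markers of other cell types were low: the leukocyte markers with a row (Cd68 and Lyz2) summed to 0.370 and 0.399 FPKM in the libraries labelled knockdown and to 0.428 and 0.349 FPKM in those labelled scrambled, and Pecam1, Tek and Plin1 were below 0.05 FPKM in each library. The epithelial markers Epcam, Cdh1, Krt5 and Krt14 summed to 0.106 and 0.135 FPKM in the libraries labelled knockdown and to 0.700 and 0.0776 FPKM in those labelled scrambled, where Krt5 alone gave 0.578 FPKM in scrambled 1.

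A messenger RNA usually begins its decay by losing its poly(A) tail. The CCR4-NOT complex and the PAN2-PAN3 pair shorten the tail, and Btg and Tob proteins bring CCR4-NOT to its targets. The shortened RNA is then either decapped by Dcp2 and eaten from the 5′ end by Xrn1, or degraded from the 3′ end by the exosome. Surveillance adds 2 routes that depend on translation: nonsense-mediated decay, in which Upf1 acts when a ribosome stops too early, and rescue of stalled ribosomes by Pelo and Hbs1l.

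Most of this machinery was lower in the libraries labelled knockdown. A mean of at least 1 FPKM over the 4 libraries was required for testing, and 41 of the 46 genes met it. Of these 41, 29 were lower and 2 were higher (limma on log2(FPKM + 1), Benjamini-Hochberg adjusted p under 0.05), and 10 did not pass. Among all 8750 genes tested 41.2% were lower, 27.4% were higher and 68.7% passed in either direction. The members' share of lower calls was 70.7%, and their share of higher calls was 4.88%. The median log2 change of the 41 genes was -0.44, beside -0.02 for all tested genes. Within batch 1 these medians were -0.45 and -0.13, and within batch 2 they were -0.44 and -0.22. The gap to all genes also narrowed from -0.41 to -0.26 without scrambled 1, -0.25 without knockdown 1 and -0.34 without either of the other two libraries. Of the 41, 18 passed with a log2 change of -0.5 or below (43.9%, beside 24.9% of all tested genes), and 2 passed with -1 or below (4.88%, beside 4.06%). Without a test, the libraries of the groups did not overlap for 31 lower and 2 higher members of the 41, beside 44.4% and 30.1% of all tested genes. The mostly nuclear RNAs Malat1 and Neat1, read here for RNA quality, were under the filter and their groups did not overlap: Malat1 had 0.505 and 0.514 FPKM in the libraries labelled knockdown and 1.12 and 1.10 FPKM in those labelled scrambled, and Neat1 had 0.423 and 0.438 against 0.807 and 0.822 FPKM. The part of these RNAs or of the stromal markers in the change of the decay genes was not tested. Pan2 met the filter only through its level in the libraries labelled scrambled, so its inclusion leaned toward a difference. The p-values lean on very close replicates: limma's SE was below the counting error of the fragments for 28 of the 41 genes. Its median was 0.0198 against a median counting error of 0.0332. The same held for 5175 of all 8750 tested genes, with medians of 0.0208 and 0.0382.

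**Figure D1:**
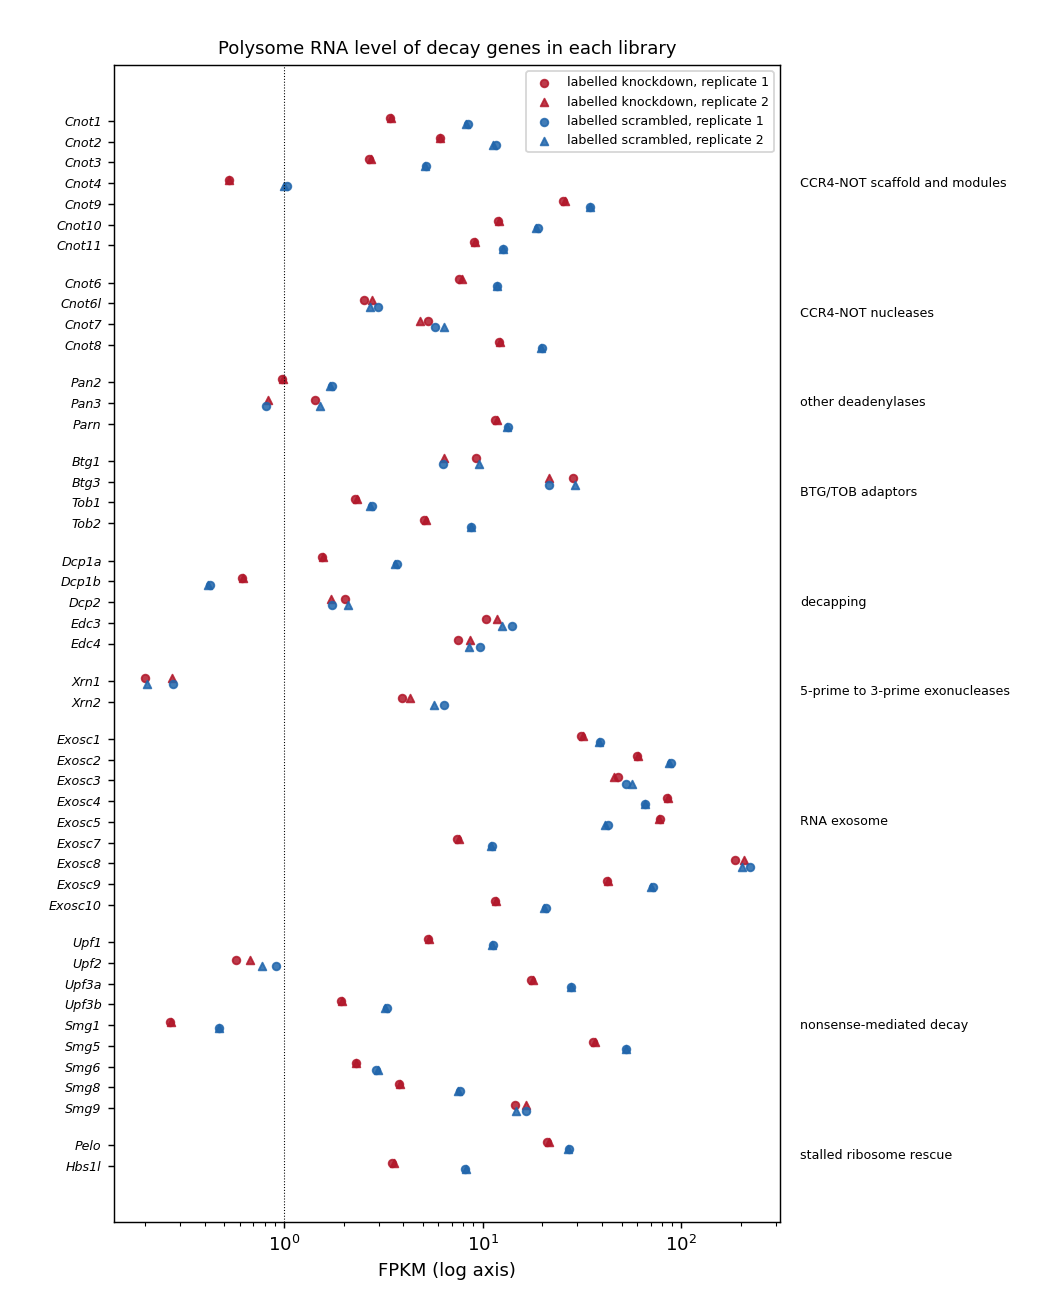
FPKM of 45 of the 46 decay genes in each library on a log axis, grouped by role. Red symbols are the libraries labelled knockdown and blue symbols those labelled scrambled, circles are replicate 1 and triangles replicate 2, and the dotted line marks the 1 FPKM required for testing. Red lies left of blue for most genes, right of it for Exosc4, Exosc5 and Dcp1b, and the colours mix for genes such as Btg1, Pan3 and Smg9.

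A pair of settings bears on this count. Centring every library on its median brought the median of all tested genes to 0.15, against -0.02 without centring, and left 24 members lower and 2 higher, beside 34.7% lower and 32.4% higher of all tested genes. The members' median was then -0.26, and since centring shifts every gene alike its distance from all genes is the same by construction. Of the members whose call held, 7 had log2 changes over 1.5 times smaller under centring, among them -0.29 for Pan2, -0.28 for Xrn2 and -0.15 for Pelo. Log2 changes also ran with gene length: fragments per FPKM give each gene's length relative to the others, and the Spearman correlation of that length with the log2 change over 8687 tested genes, which share libraries and are not replicates, was -0.38. Such a length is too short where the recovered fragments lost a common divisor. The decay genes were long, with a median length 1.48 times that of the tested genes. With the trend over length taken out, 26 were lower and 5 higher, beside 36.6% lower and 31.7% higher of all genes with a length, and their median was -0.26 beside 0.00 for all genes. Of the called members, 15 stayed past the threshold in the same direction with log2 changes over 1.5 times smaller. They came to -0.68 for Cnot1, -0.48 for Cnot2, -0.33 for Cnot3, -0.26 for Cnot9, -0.28 for Cnot11, -0.20 for Cnot6, -0.41 for Cnot8, -0.07 for Pan2, -0.12 for Tob1, -0.34 for Tob2, -0.54 for Dcp1a, -0.13 for Exosc7, -0.26 for Upf3b, -0.18 for Smg5 and -0.64 for Hbs1l.

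**Figure D2:**
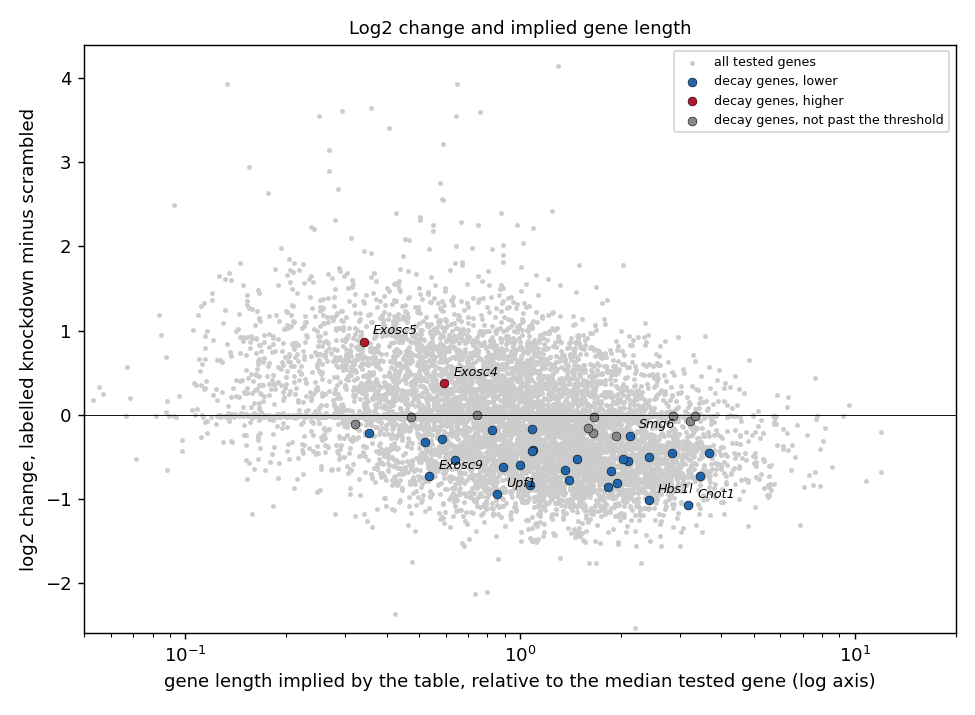
Log2 change (libraries labelled knockdown minus those labelled scrambled) against the gene length implied by the table, relative to the median tested gene, on a log axis. Grey points are all tested genes and coloured points 40 of the 41 tested decay genes. Longer genes sit lower in general. Upf1 and Exosc9 are low at implied lengths under that of the median gene, though implied lengths can be short by a common divisor.

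Promoters from RefSeq (GRCm38.p6) were matched by gene ID to 40 of the 46 genes, in 48 windows of 250 bases before to 50 after a start. The 4 shown here belong to the gene with the largest rise and to genes with some of the largest falls that had a window, and give the 250 bases before the start, 5′ to 3′ on the gene's strand. Capitals mark matches, on either strand, to any of 6 motifs: the GC box spelled GGGCGG, the CCAAT box of that name, the TATA box spelled TATAAA, the ETS motif spelled CCGGAAG, the NRF1 motif, and the interferon-stimulated response element (ISRE).
Exosc5, chr7:25658903-25659152, plus strand: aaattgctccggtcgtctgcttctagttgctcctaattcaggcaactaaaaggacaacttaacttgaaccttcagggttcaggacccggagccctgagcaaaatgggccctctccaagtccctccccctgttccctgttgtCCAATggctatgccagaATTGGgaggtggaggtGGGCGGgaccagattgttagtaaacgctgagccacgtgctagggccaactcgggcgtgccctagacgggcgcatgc
Dcp1a, chr14:30479315-30479564, plus strand: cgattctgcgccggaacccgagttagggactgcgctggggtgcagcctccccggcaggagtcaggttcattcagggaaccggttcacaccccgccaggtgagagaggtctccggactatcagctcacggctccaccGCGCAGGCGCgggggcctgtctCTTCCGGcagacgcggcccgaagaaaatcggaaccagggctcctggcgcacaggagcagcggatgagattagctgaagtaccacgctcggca
Hbs1l, chr10:21295729-21295978, plus strand: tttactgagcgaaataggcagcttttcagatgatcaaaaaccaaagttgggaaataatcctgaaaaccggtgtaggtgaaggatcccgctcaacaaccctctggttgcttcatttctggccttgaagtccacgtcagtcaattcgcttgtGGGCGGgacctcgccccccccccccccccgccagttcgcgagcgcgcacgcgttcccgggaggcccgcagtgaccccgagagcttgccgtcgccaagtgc
Upf1, chr8:70353280-70353529, minus strand: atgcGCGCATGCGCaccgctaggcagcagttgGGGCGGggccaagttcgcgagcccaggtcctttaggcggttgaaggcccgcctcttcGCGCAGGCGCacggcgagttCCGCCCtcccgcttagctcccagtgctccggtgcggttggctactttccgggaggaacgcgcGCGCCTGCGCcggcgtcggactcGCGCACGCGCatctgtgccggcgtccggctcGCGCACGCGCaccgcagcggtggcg

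Over the whole windows, the NRF1 letters were in 14 of 48 member windows (29.2%), beside 4.60% of 32851 windows of all genes and 11.1% of 9002 windows of tested genes. Upf1 held 5 matches in the bases shown and Dcp1a held 1. In the whole windows Exosc5, which was higher, and Hbs1l, which was lower, also held 1 each. Those matches did not lie wholly within the bases shown and are not marked there. The ETS letters were in 25% of member windows (20.4% of tested and 8.86% of all windows), and the GC box in 68.8% (66.3% and 35.7%). The ISRE letters were in 1 member window, that of Upf2, 2.08% beside 2.74% of tested and 3.44% of all windows. The NRF1 letters were in 12.6% of the windows of tested genes that were lower and in 9.40% of those that were higher. In all, 1 member window held 2 motifs that overlapped. These matches describe letters and not bound sites.

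The scaffold and modules of CCR4-NOT, the main deadenylase of the cytoplasm, were lower throughout. All 6 tested subunits of this class passed, with log2 changes between -1.08 and -0.42, where 41.2% of all tested genes were lower. Cnot1 (Entrez 234594), the scaffold on which the complex is built, had 3.41 and 3.46 FPKM in the libraries labelled knockdown and 8.46 and 8.28 FPKM in those labelled scrambled. Its means were 3.44 ± 0.0375 and 8.37 ± 0.130 FPKM (SD, n = 2 each), a fold of 0.411. Its log2 change, the lowest of the 41 tested members, was -1.08 (SE 0.02, limma adjusted p = 1.6e-04). Within batch 1 it was -1.10 and within batch 2 it was -1.06. The groups were well apart, at 1289 and 1201 fragments against 2610 and 3101.

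Cnot2 and Cnot3 form the module at the other end of the scaffold. Cnot2 had 6.09 and 6.12 FPKM in the libraries labelled knockdown, against 11.6 and 11.3 FPKM in those labelled scrambled (log2 -0.81). For Cnot3 the values were 2.70 and 2.73 FPKM against 5.22 and 5.12 FPKM (log2 -0.73). Both pairs of libraries were separate and neither gene had overlapping groups. Cnot10 and Cnot11, which bind the start of the scaffold, came to 11.97 and 12.1 against 19.0 and 18.6 FPKM for Cnot10 and to 9.02 and 9.19 against 12.7 and 12.6 FPKM for Cnot11, with log2 changes of -0.60 and -0.44. Cnot9, which docks partner proteins on the complex, was the most abundant of the class, at 25.5 and 26.1 FPKM in the libraries labelled knockdown and 34.9 FPKM in both of those labelled scrambled (log2 -0.42). Cnot4, a ubiquitin ligase associated with the complex, was under the filter at 0.530 and 0.532 against 1.04 and 1.00 FPKM, and its groups did not overlap.

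The 4 nucleases of CCR4-NOT split within each pair of near copies, with 2 lower (beside 41.2% of all tested genes) and 2 not past the threshold. Cnot8 had 12.1 and 12.3 FPKM in the libraries labelled knockdown and 19.96 and 19.7 FPKM in those labelled scrambled (log2 -0.66, SE 0.02, adjusted p = 1.8e-04). Its close relative Cnot7 had 5.32 and 4.84 FPKM against 5.74 and 6.43 FPKM, which did not pass (log2 -0.22, SE 0.07, adjusted p = 0.082), although the groups did not overlap. Cnot6 had 7.60 and 7.87 against 11.8 and 11.9 FPKM (log2 -0.55), and Cnot6l had 2.53 and 2.78 against 2.97 and 2.73 FPKM, with overlapping groups (adjusted p = 0.37). How reads shared by such copies were counted is not stated, so both members of a pair are uncertain to that extent, and the difference between the copies was not itself tested.

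Outside CCR4-NOT, Pan2, the catalytic subunit of the PAN2-PAN3 deadenylase, was lower (log2 -0.46, SE 0.02, limma adjusted p = 2.2e-04). It had 0.978 and 0.989 FPKM in the libraries labelled knockdown, against 1.75 and 1.70 FPKM in those labelled scrambled. Pan2 met the filter only through the latter, which leans toward such a call, and its log2 change was -0.07 with the length trend removed. Its partner Pan3, which holds Pan2 on the tail, had 1.43 and 0.830 FPKM against 0.818 and 1.53 FPKM. The high and the low value of Pan3 thus occurred once in each group. Parn, a poly(A) ribonuclease with many nuclear substrates, was lower by a small step, at 11.6 and 11.8 against 13.4 and 13.3 FPKM (log2 -0.17, adjusted p = 0.0037). The call of Parn was lost in 4 settings: adjusted p was 0.99 with centred libraries, 0.41 with quantile-normalized ones, 0.49 with the length trend removed and 0.055 when scrambled 1 was left out.

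Among the antiproliferative adaptors Tob2 was lower, with 5.05 and 5.18 FPKM in the libraries labelled knockdown and 8.71 FPKM in both of those labelled scrambled (log2 -0.67, SE 0.02, adjusted p = 1.8e-04). Tob1 passed with a smaller change, at 2.27 and 2.33 against 2.79 and 2.72 FPKM (log2 -0.19, adjusted p = 0.0039). It rested on 223 and 210 fragments against 224 and 265, and its call was lost when the SE was not allowed below the counting error (adjusted p = 0.10) and under both rescalings, where adjusted p was 0.77 with centred and 0.17 with quantile-normalized libraries. Btg1 had 9.25 and 6.36 FPKM in the libraries labelled knockdown and 6.35 and 9.61 FPKM in those labelled scrambled. Btg3 had 28.3 and 21.6 against 21.7 and 29.2 FPKM. In both Btg genes each group held a high and a low library, and neither gene passed (log2 -0.02 each, adjusted p = 0.99 each).

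Decapping gave a mixed picture, with 1 of 4 tested genes lower (beside 41.2% of all tested genes) and 3 not past. Dcp1a, an activator of the decapping enzyme, had 1.56 and 1.58 FPKM in the libraries labelled knockdown and 3.69 and 3.62 FPKM in those labelled scrambled (log2 -0.86, SE 0.02, adjusted p = 1.6e-04), a fold of 0.429. Its near copy Dcp1b lay the other way, at 0.617 and 0.624 against 0.425 and 0.415 FPKM, a fold of 1.48 without overlap. Dcp1b was under the filter, with 96 and 89 fragments against 54 and 64. When all 18200 genes were tested without the filter, Dcp1b had a log2 change of 0.19 (adjusted p = 0.0013).

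Dcp2, the enzyme that removes the cap, had 2.02 and 1.72 FPKM in the libraries labelled knockdown and 1.74 and 2.09 FPKM in those labelled scrambled (adjusted p = 0.98). Edc3 and Edc4, which help assemble the decapping complex, had 10.4 and 11.8 against 14.1 and 12.5 FPKM for Edc3 (log2 -0.25, adjusted p = 0.11) and 7.53 and 8.69 against 9.74 and 8.52 FPKM for Edc4 (log2 -0.15, adjusted p = 0.31). The groups of Edc3 did not overlap and those of Dcp2 and Edc4 did. Of the exonucleases that follow decapping, the mainly nuclear Xrn2 was lower at 3.94 and 4.33 against 6.38 and 5.73 FPKM (log2 -0.46, SE 0.07, adjusted p = 0.011), a call lost when knockdown 1 was left out (adjusted p = 0.074) and with the length trend removed (log2 -0.05, adjusted p = 0.59). Cytoplasmic Xrn1 was the lowest of the 46 members per length, with overlapping groups. It had 0.1995 and 0.274 FPKM in the libraries labelled knockdown and 0.277 and 0.205 FPKM in those labelled scrambled.

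The RNA exosome held both of the tested members that rose. The exosome is a barrel of core subunits that threads RNA toward attached nucleases. Its messenger RNAs reached the highest levels per length among the 46 members. They came up to 206 FPKM in the libraries labelled knockdown and 221 FPKM in those labelled scrambled. Of 9 tested subunits, 2 were higher, 6 lower and 1 did not pass, beside 27.4% higher and 41.2% lower of all tested genes. Exosc5, a barrel subunit, had 77.8 and 77.1 FPKM in the libraries labelled knockdown and 42.5 and 41.5 FPKM in those labelled scrambled. With means of 77.4 ± 0.508 and 42.0 ± 0.713 FPKM (SD, n = 2 each) it rose 1.84-fold (log2 0.87, SE 0.02, adjusted p = 1.7e-04; 0.86 in batch 1 and 0.88 in batch 2). Exosc4, another barrel subunit, had 84.8 and 85.9 against 65.9 and 65.3 FPKM, a rise of 1.30-fold (log2 0.37, adjusted p = 4.6e-04).

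Subunits of the same particle fell beside them. Exosc9, also of the barrel, had 42.0 and 42.5 FPKM in the libraries labelled knockdown and 71.6 and 70.2 FPKM in those labelled scrambled (log2 -0.73, SE 0.02, adjusted p = 1.7e-04). Exosc10, the nuclear exonuclease of the exosome, had 11.6 FPKM in both libraries labelled knockdown, against 20.9 and 20.3 FPKM in those labelled scrambled (log2 -0.77). Exosc2, an RNA-binding cap subunit, had 59.9 and 60.3 against 88.6 and 87.0 FPKM (log2 -0.54), and the barrel subunit Exosc7 had 7.45 and 7.59 against 11.1 and 11.01 FPKM (log2 -0.50). In the libraries labelled knockdown Exosc5 was thus above Exosc9, and in those labelled scrambled it was below it, per length.

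Smaller steps were seen in the cap subunits Exosc1 and Exosc3. Exosc1 passed at a log2 change of -0.29, which missed after median-centring (adjusted p = 0.087). Exosc3 passed at -0.22 (adjusted p = 0.025), with 47.9 and 45.8 FPKM in the libraries labelled knockdown and 52.9 and 56.2 FPKM in those labelled scrambled. That call was lost when batch entered as a block (adjusted p = 0.092) and with centred libraries (adjusted p = 0.47). Leaving out scrambled 2, knockdown 1 or knockdown 2 gave adjusted p of 0.094, 0.082 and 0.13 in turn. Exosc8, the most abundant per length of the 46 members, had 186 and 206 against 221 and 202 FPKM, with overlapping groups (limma adjusted p = 0.34).

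Nonsense-mediated decay was lower in 7 of 8 tested genes, where 41.2% of all tested genes were lower. Its median log2 change was -0.53, beside -0.02 for all tested genes. Upf1 (Entrez 19704), the helicase at its centre, had 5.28 and 5.40 FPKM in the libraries labelled knockdown and 11.2 FPKM in both of those labelled scrambled. Its promoter above held the 5 NRF1 matches, and any part of these in its change was not tested. The fold was 0.477 (log2 -0.94, SE 0.02, adjusted p = 1.6e-04; -0.96 in batch 1 and -0.93 in batch 2), from 537 and 503 fragments against 932 and 1124. Upf3a and Upf3b, which link Upf2 to the exon junction complex, were both lower. Upf3a had 17.6 and 18 against 27.9 and 27.8 FPKM (log2 -0.62), and Upf3b had 1.95 and 1.96 against 3.32 and 3.22 FPKM (log2 -0.53). Upf2, the bridge between them and Upf1, was under the filter at 0.577 and 0.677 against 0.915 and 0.777 FPKM, without overlap.

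The Smg genes act around phosphorylation of Upf1. Smg1, the kinase, was under the filter at 0.267 and 0.271 FPKM in the libraries labelled knockdown and 0.474 and 0.470 FPKM in those labelled scrambled. Its partner Smg8 had 3.81 and 3.85 against 7.69 and 7.53 FPKM (log2 -0.83, SE 0.02, adjusted p = 1.6e-04), whereas Smg9, which binds Smg8 and Smg1, had 14.5 and 16.5 against 16.5 and 14.7 FPKM (log2 -0.01, adjusted p = 0.99). Within this kinase complex, then, the libraries of Smg1 and Smg8 were separated by group and those of Smg9 were not. Smg5, an adaptor that binds phosphorylated Upf1, had 35.8 and 36.8 against 52.5 and 52.7 FPKM (log2 -0.52). Smg6, the endonuclease of the pathway, passed at -0.25, was not past the threshold after median-centring (adjusted p = 0.13), and turned to 0.10 with the length trend removed (adjusted p = 0.011).

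Both ribosome rescue factors were lower, as were 41.2% of all tested genes. Hbs1l (Entrez 56422), a GTPase that delivers Pelo to stalled ribosomes, had 3.52 and 3.60 FPKM in the libraries labelled knockdown and 8.20 and 8.22 FPKM in those labelled scrambled, a fold of 0.434 (log2 -1.01, SE 0.02, adjusted p = 1.6e-04). Pelo, which splits such ribosomes off the RNA, had 21.1 and 21.5 against 27.1 and 26.8 FPKM (log2 -0.32, adjusted p = 7.0e-04). The step of Hbs1l was therefore larger than that of its partner on the log2 scale, though this difference was not tested.

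**Figure D3:**
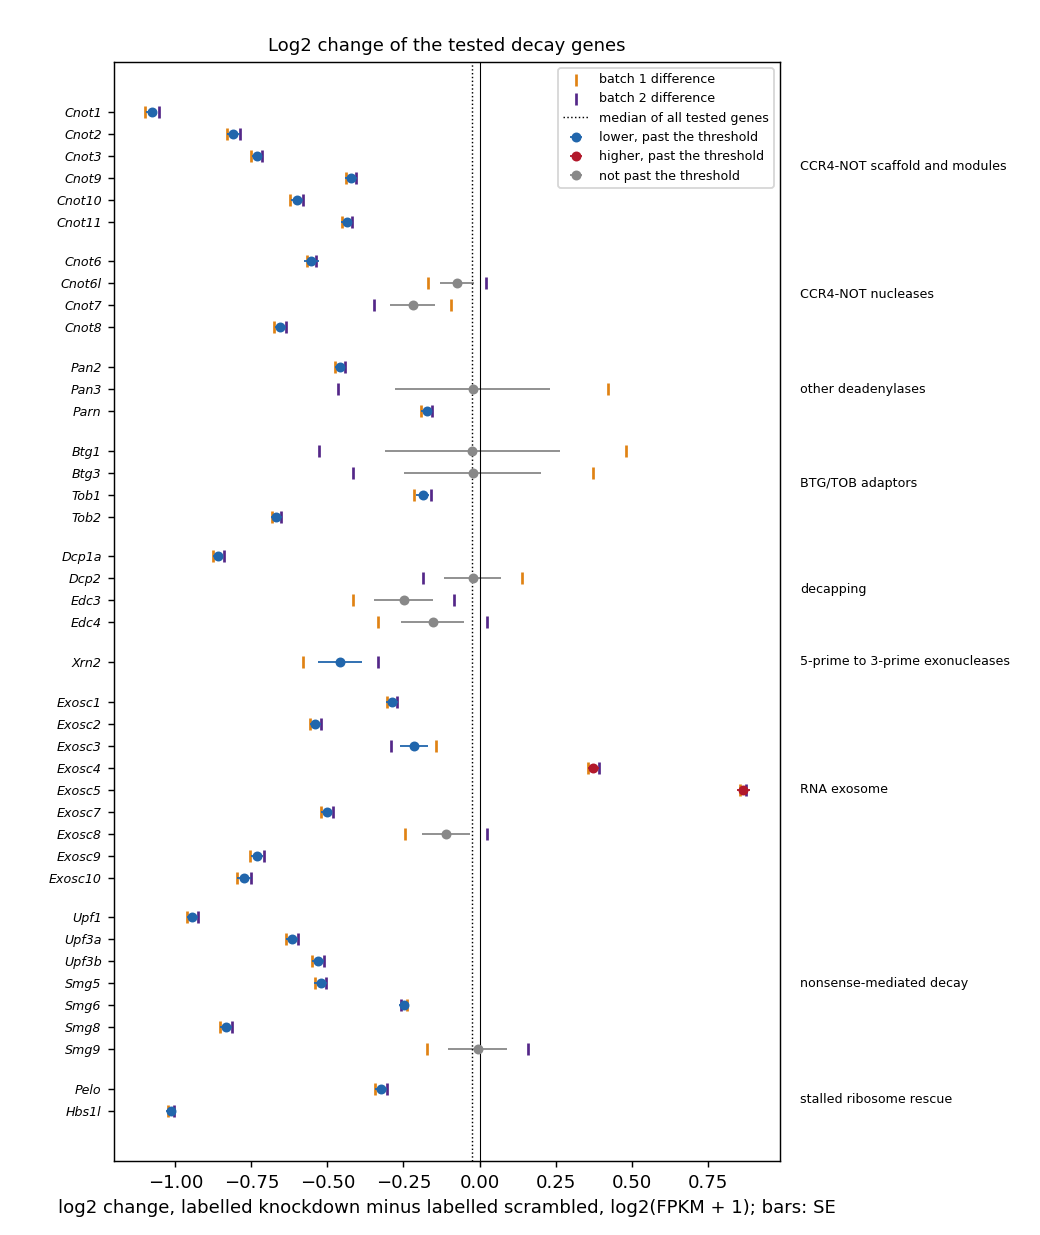
Log2 change of 40 of the 41 tested decay genes (libraries labelled knockdown minus those labelled scrambled, on log2(FPKM + 1)), grouped by role. Points with SE bars are blue where lower, red where higher and grey where not past the threshold, orange and purple ticks are the differences within batch 1 and batch 2, and the dotted line is the median of all tested genes. Exosc4 and Exosc5 are the only red points, and the ticks of most grey points lie far apart.

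The 10 genes that did not pass had replicates far apart. In Btg1, Btg3, Cnot6l, Dcp2, Edc4, Exosc8, Pan3 and Smg9 the difference had opposite signs in the 2 batches, 8 of 41 genes (19.5%, beside 25.4% of all tested genes). In Btg1 the library labelled knockdown 1 lay near that labelled scrambled 2 (9.25 and 9.61 FPKM), and the library labelled knockdown 2 lay near that labelled scrambled 1 (6.36 and 6.35 FPKM). The same pairs of libraries were close in Btg3, Pan3, Dcp2, Smg9 and Xrn1. Crossed libraries were closer than libraries of a group in 8 of the 41 genes (19.5%, beside 25.4% of all tested genes). Cnot6l, Edc4 and Exosc8 were among these, and Xrn1 was not tested. In all 10 genes that did not pass, the gap between replicates 2 and 1 had opposite signs in the libraries labelled knockdown and scrambled. So it had in 98.9% of all tested genes that did not pass. Among members that passed the share was 74.2% (23 of 31), beside 72.8% of all tested genes that passed. Over all tested genes it was 81%. In the 10 genes these gaps were from 0.10 to 0.48 (log2) in the libraries labelled knockdown and from 0.09 to 0.53 in those labelled scrambled. In the 31 genes that passed, the median gaps were 0.02 in both groups. Passing depends on these gaps through the SE, so this contrast was set in part by the test. Btg1 replicates differed by 9.98 counting SDs in the libraries labelled knockdown and by 10.7 in those labelled scrambled, while over the 41 genes the medians were 0.51 and 0.56, beside 0.67 for counting error alone. The part of batch, library handling or the table's construction in this pattern was not tested.

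**Figure D4:**
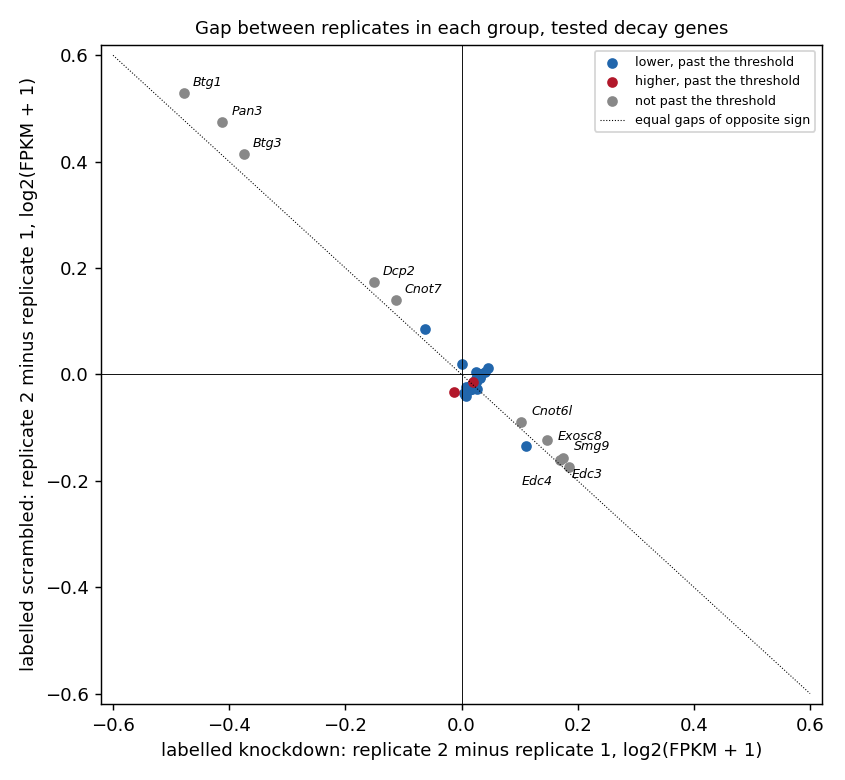
Gap between replicates 2 and 1 on log2(FPKM + 1) in the libraries labelled knockdown (horizontal axis) and in those labelled scrambled (vertical axis) for 40 of the 41 tested decay genes. Blue and red points are genes past the threshold (lower and higher) and grey points those that were not, which run along the dotted line of equal gaps of opposite sign, from Btg1 at one end to Edc3 at the other.

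As shares of all FPKM in a library, the 46 genes made up 0.118% and 0.125% in the libraries labelled knockdown and 0.167% and 0.159% in those labelled scrambled. Their summed FPKM was 828 and 847 in the libraries labelled knockdown, against 999 and 983 in those labelled scrambled. The groups did not overlap in either measure.

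A further 88 genes of the same pathways, listed with earlier results known, included 70 that were tested: 13 were higher (18.6%, beside 27.4% of all tested genes), 38 lower (54.3%, beside 41.2%) and 19 did not pass, with a median log2 change of -0.33 beside -0.02. The largest rise was that of Btg2, an adaptor of the family of Btg1, which had 10.2 FPKM in both libraries labelled knockdown and 3.86 and 3.82 FPKM in those labelled scrambled (2.66-fold, log2 1.21, adjusted p = 1.6e-04). Lsm5, of the ring that binds deadenylated 3′ ends, followed at 142 and 138 against 63.4 and 61.5 FPKM, and C1d, a nuclear cofactor of the exosome, at 19.7 and 19.6 against 11.02 and 10.8 FPKM. The largest falls were in Zfp36l2, a zinc finger protein that brings CCR4-NOT to AU-rich elements, at 9.42 and 9.66 against 27.5 and 27.7 FPKM, in Hnrnpd, which also binds AU-rich elements, at 11.8 and 12.1 against 33.1 and 32.9 FPKM, and in Ncbp1, of the nuclear cap-binding complex, at 20.6 and 20.9 against 51.5 and 50.3 FPKM. Their log2 changes were -1.44, -1.40 and -1.26.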

How the data were processed

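Polysome RNA came from 2 libraries labelled knockdown and 2 labelled scrambled, after Trizol harvest and bead capture of messenger RNA, per the labels' protocols. The values are FPKM computed and deposited by the authors. The submitters' processing notes name the builds GRCm38, mm10 and GRCm39 with no role, and the sources name no aligner, counting tool, annotation or strandedness.

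FPKM were tested as log2(FPKM + 1) with limma 3.58.1 under R 4.3.3 (linear fit, then empirical Bayes moderation with a mean trend, median degrees of freedom 3.06), two-sided, without a batch term, for 8750 genes with a mean of at least 1 FPKM, adjusted by Benjamini-Hochberg over all of them with a threshold of 0.05. Changes on this scale understate those of low genes. Replicate number and labelled batch coincide and pair the libraries by label. The replicate gaps of the 2 groups had Pearson's r = -0.83 over 8750 genes. Whole fragments, the smallest whole numbers in proportion to FPKM within a gene, were recovered for 8693 tested genes (99.3%) and all 46 members, with a relative tolerance of 3e-08. They can be short by a common divisor and cover counting error only. Both methods were tested on simulated data with independent noise in each library. Such data lack the opposed replicate gaps seen here and cannot speak for calls under that pattern. The members and lists were chosen with earlier results of these data known. The text names the members except 1, which is in the counts and medians but is not reported here. Values in each library are given for members past the threshold with an absolute log2 change of at least 0.3 and for 6 pairs of near copies, and some other members were added after their values were seen. Of the further list, the 3 largest rises and 3 largest falls are named. Alternatives were another pseudocount, other filters and scalings, batch as a block, removal of the length trend (lowess), counting error as the smallest SE, and leaving out each library. Figures used Python 3.11.15 and matplotlib 3.10.9.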

Additional observations from a re-analysis of the deposited data

Results flagged for a closer look

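In 8 tested decay genes the difference between the libraries labelled knockdown and scrambled had opposite signs in the 2 labelled batches, and this difference between batches was not tested. On the log2 scale, the change in batch 1 minus that in batch 2 was 1.01 for Btg1, 0.79 for Btg3, 0.89 for Pan3 and 0.33 for Dcp2, where batch 1 was the higher. It was -0.19 for Cnot6l, -0.36 for Edc4, -0.27 for Exosc8 and -0.33 for Smg9, where batch 2 was the higher. In Btg1 the changes themselves were 0.48 in batch 1 and -0.53 in batch 2, and in Pan3 they were 0.42 and -0.46.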

How the results depend on the processing

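The members' counts were 29 lower and 2 higher of 41 tested. Under the pseudocount, filter, scaling, block and counting-error settings they were 22 to 31 lower and 2 or 3 higher. The 22 were of 31 members tested with the stricter filter, and the 31 of 46 tested without a filter. Over these settings 25.7% to 41.3% of all tested genes were lower and 21% to 32.4% higher. Removal of the length trend gave 26 lower and 5 higher members, beside 36.6% and 31.7% of all tested genes. Leaving out 1 library gave 27 to 28 lower and 2 higher members, and 3432 to 3460 lower and 2187 to 2283 higher genes in all. With batch as a replicate block 28 members were lower and 2 higher, beside 39.1% lower and 25.2% higher of all tested genes. The loss was Exosc3 (limma adjusted p = 0.092), and the block changed no other member's call. Pairing the libraries crosswise (knockdown 2 with scrambled 1, knockdown 1 with scrambled 2) was chosen after seeing the data. It gave 34 lower and 2 higher members, beside 4282 lower (48.9%) and 2962 higher (33.9%) of all tested genes. The replicate gaps that led to this pairing also enter the SE, so its counts are no independent check. Without the filter 3819 genes were higher, and with a mean of at least 5 FPKM, which tests fewer genes, 1583 were higher and 2213 lower. The members' median of -0.44 was -0.53 with a pseudocount of 0.1, -0.41 without the filter, -0.46 with the stricter filter, -0.26 after median-centring, -0.34 after quantile normalization and -0.26 with the length trend removed, and from -0.45 to -0.41 with 1 library left out, where that of all genes ranged from -0.17 to -0.10. Signs turned as follows, mostly for genes that had not passed. After median-centring Cnot6l came to 0.10, Pan3 0.15, Btg1 0.15, Btg3 0.15, Dcp2 0.15, Edc4 0.0198, Exosc8 0.0622 and Smg9 0.17. After quantile normalization Cnot6l came to 0.035, Btg1 0.14, Btg3 0.0535, Dcp2 0.054, Edc4 0.0039 and Smg9 0.13. With the length trend removed Cnot6l came to 0.32, Cnot7 0.0788, Pan3 0.38, Btg1 0.28, Dcp2 0.37, Edc3 0.0818, Edc4 0.14, Smg6 0.10 and Smg9 0.0287. With 1 library left out Btg1 ranged from -0.29 to 0.24, Btg3 from -0.23 to 0.18, Pan3 from -0.26 to 0.22, Dcp2 from -0.11 to 0.0651 and Smg9 from -0.0943 to 0.0812. The cause of these turns was not tested. Over all alternatives for the 41 genes, 431 values kept direction and call, 33 turned sign and 17 lost the call. With the length trend removed 3 gained a call: Cnot6l (adjusted p = 0.016) and Dcp2 (adjusted p = 0.043), both with a turned sign, and Exosc8 (log2 -0.34, adjusted p = 0.033). Depth limits the low genes most: tested members had 210 to 12597 fragments in a library.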

Other observations

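Some further decay genes, chosen after their values were seen, are given as values. Of the LSm1 to LSm7 ring that binds deadenylated RNA, 3 of 7 genes were higher in the libraries labelled knockdown, 0 were lower and 4 did not pass, beside 27.4% higher and 41.2% lower of all tested genes. Lsm1 had 25.4 FPKM in both libraries labelled knockdown and 17.2 and 16.9 FPKM in those labelled scrambled (log2 0.55), and Lsm7 had 217 and 202 against 148 and 158 FPKM (log2 0.45). The exon junction complex, which is left on spliced RNA and takes part in nonsense-mediated decay, was split. Its gene Magohb was higher (log2 0.24) and its gene Casc3 lower (log2 -1.01) in the libraries labelled knockdown. Magoh had 620 and 633 FPKM in the libraries labelled knockdown and 485 and 482 FPKM in those labelled scrambled (log2 0.37), whereas its binding partner Rbm8a had 80.9 and 82.8 against 132 and 131 FPKM (log2 -0.67) and the helicase Eif4a3 had 129 and 131 against 232 and 229 FPKM (log2 -0.83).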
